A study of Mus musculus with 8 samples.

Results

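C17 is a group of 521 mouse mammary gland cells that the authors' clustering set apart from the epithelium, and its leading genes were those of macrophages. Its members were the cells that carry the cluster number C17 and both the non-epithelial and the quality flags in the deposited cell annotation, found in the count matrices by library and barcode. They made up 521 of 25009 cells that passed the filters and of 1516 non-epithelial cells. The rule kept libraries with 20 or more such cells, which left the 2 gestation and the 2 lactation libraries for tests, with 60 cells in G1, 86 in G2, 212 in L1 and 156 in L2. The other members were 6 cells in PI2 and 1 in NP1.

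The study used 10x Genomics single-cell RNA sequencing to follow the gland through the pregnancy cycle in C57BL/6N females. For each stage 2 mice gave 1 library each, at 8 weeks of age before any pregnancy (nulliparous, NP), on day 14.5 of gestation (G), on day 6 of lactation (L) and on day 11 after weaning of the pups (PI). All libraries shared the same enzymatic digestion of glands freed of lymph nodes and the same cell sort, which kept EpCAM+ cells and left out cells stained for CD31 (endothelium), CD45 (leukocytes) or Ter119 (red cells). The C17 cells are therefore leukocyte-like cells that passed a gate meant to remove them, and they need not represent the macrophages of the whole gland. The labels name no transgene or treatment.

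Mammary macrophages lie around and within the ducts and alveoli. They take up dying cells and milk debris, digest them in lysosomes, and display peptides on MHC class II molecules to T cells. They also release complement C1q, chemokines, growth factors and matrix proteases, and they are known to support branching, alveolar growth and the clearance of the gland after weaning.

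Promoter sequences are shown for 6 genes from 3 functions that the results below turn on, namely antigen presentation, lysosomal digestion and the interferon response. They are RefSeq sequences of GRCm38.p6 that end at the base before the gene's start, written 5′ to 3′ on the gene's strand. The motifs and the genes shown were chosen after matches had been seen, and both strands were searched in the 250 bases before each start. Capitals mark matches to the Y box CTGATTGG in H2-Aa (chr17:34287824-34287943, minus strand) and H2-Eb1 (chr17:34305747-34305866, plus strand), genes of MHC class II chains.
H2-Aa: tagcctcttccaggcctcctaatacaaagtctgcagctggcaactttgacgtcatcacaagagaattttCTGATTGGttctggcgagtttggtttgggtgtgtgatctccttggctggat
H2-Eb1: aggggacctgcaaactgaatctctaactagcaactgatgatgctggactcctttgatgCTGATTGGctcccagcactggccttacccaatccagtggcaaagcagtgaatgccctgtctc

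Capitals in the next pair mark CACGTG, the core of a motif known from lysosomal genes, in Ctsd (cathepsin D, chr7:142387828-142388077, minus strand) and Lamp1 (a lysosomal membrane protein, chr8:13159041-13159160, plus strand).
Ctsd: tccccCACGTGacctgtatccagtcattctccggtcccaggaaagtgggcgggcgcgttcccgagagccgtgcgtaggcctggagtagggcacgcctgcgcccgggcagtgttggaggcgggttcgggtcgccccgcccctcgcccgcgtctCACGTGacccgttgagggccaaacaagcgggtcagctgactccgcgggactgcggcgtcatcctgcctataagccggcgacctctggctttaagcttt
Lamp1: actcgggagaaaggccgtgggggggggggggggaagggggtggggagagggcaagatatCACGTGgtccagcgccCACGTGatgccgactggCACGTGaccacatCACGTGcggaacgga

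In the last pair capitals mark GAAA, any 2 bases and GAAA again, or the reverse complement, which is the core of the interferon-stimulated response element, in Isg15 (a ubiquitin-like protein, chr4:156200819-156200938, minus strand) and Ifit3 (an antiviral effector, chr19:34583349-34583528, plus strand). In Isg15 the 3 matches overlap, and in Ifit3 both are on the opposite strand.
Isg15: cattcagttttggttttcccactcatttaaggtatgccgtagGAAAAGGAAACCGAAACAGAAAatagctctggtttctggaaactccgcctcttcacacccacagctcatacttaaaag
Ifit3: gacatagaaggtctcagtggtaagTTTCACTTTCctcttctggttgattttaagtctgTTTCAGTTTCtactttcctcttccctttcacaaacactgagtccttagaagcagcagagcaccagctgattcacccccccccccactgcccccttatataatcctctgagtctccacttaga

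Of 32851 promoters, 3.83% held the Y box, 6.02% held CACGTG and 2.98% held the interferon-stimulated element. The Y box was found in 4 of 10 genes of MHC class II presentation with a promoter sequence, CACGTG in 5 of 18 lysosomal genes and the interferon-stimulated element in 11 of 17 interferon response genes. These matches describe the sequence and were not tested as binding sites.

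The genes that set C17 apart named it macrophage-like. Levels are given in CPM, the number of unique molecular identifiers (UMIs, each standing for 1 captured transcript) of a gene for each 1000000 UMIs summed over the C17 cells of a library. C1qc, a chain of complement C1q, averaged 3219 CPM over the 4 libraries and was 274-fold above its highest mean in any of the clusters C1 to C15. Among the 20 genes with the largest such ratio were also C1qa and C1qb, Aif1 (a macrophage actin-binding protein), Tyrobp (an adaptor of activating receptors), Ctss (cathepsin S), Il1b (interleukin 1 beta), Cybb (the NADPH oxidase of phagocytes), Fcgr3 (an IgG receptor), the MHC class II genes Cd74, H2-Aa and H2-Ab1, and Mmp12 (macrophage elastase). The clusters were made on the same counts, so these ratios are a description without a test.

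Cd74, the invariant chain that escorts MHC class II, was the most abundant transcript by mean CPM, with 29294 CPM in G1, 31666 in G2, 32816 in L1 and 46606 in L2. In C18, the fibroblast cluster of the same libraries, it lay between 40.8 and 173 CPM. Summed over 14 macrophage markers, C17 held 12257 to 16908 CPM per library and C18 held 225 to 784. Csf1r, the receptor that macrophages need to survive, stood at 308, 442, 225 and 357 CPM in G1, G2, L1 and L2, and Adgre1 (F4/80) at 95.2, 114, 119 and 130 CPM. Cd163 and Mrc1, scavenging receptors of tissue-resident macrophages, are on the same list, and Mrc1 did not exceed 13.4 CPM in any of the 4 libraries.

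Flt3, the growth factor receptor of dendritic cells, had no UMI in any C17 cell of the 4 libraries. Dendritic genes were still present, since the markers common to dendritic cells summed to 122 to 224 CPM, mainly from Itgax (CD11c) at 105 to 175 CPM, and those of type 1 dendritic cells to 526 to 803 CPM. Mast cell, B cell, plasma cell and neutrophil markers stayed below 32 CPM per list and library. C16, the other cluster that the study tagged as immune, held 78 cells and differed in kind, as its 22 cells in G1 carried 5270 CPM of natural killer and innate lymphoid markers and 41.2 CPM of macrophage markers.

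The 3 genes set here as marks of C17, Ptprc, Cd74 and Zeb2, did not serve equally well. The paper itself tagged C16 and C17 as immune by Cd74, Cd72 and Cd54. At least 1 UMI of Ptprc (CD45) was found in 88.3, 79.1, 75.5 and 78.8% of C17 cells in G1, G2, L1 and L2, against 0 to 3.23% of C18 cells. Cd74 was found in every C17 cell of the 4 libraries, but also in 6.45 to 30.8% of C18 cells and in 32.2 to 58.9% of the basal cells of C13 and C14, so a single UMI of it does not mark a cell. Zeb2, a transcription factor of macrophages and of fibroblasts, was found in 56.1 to 78.3% of C17 cells and in 52.8 to 73.7% of C18 cells and did not tell the clusters apart. The plot of marker levels shows the same for Zeb2.

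**Figure D1:**
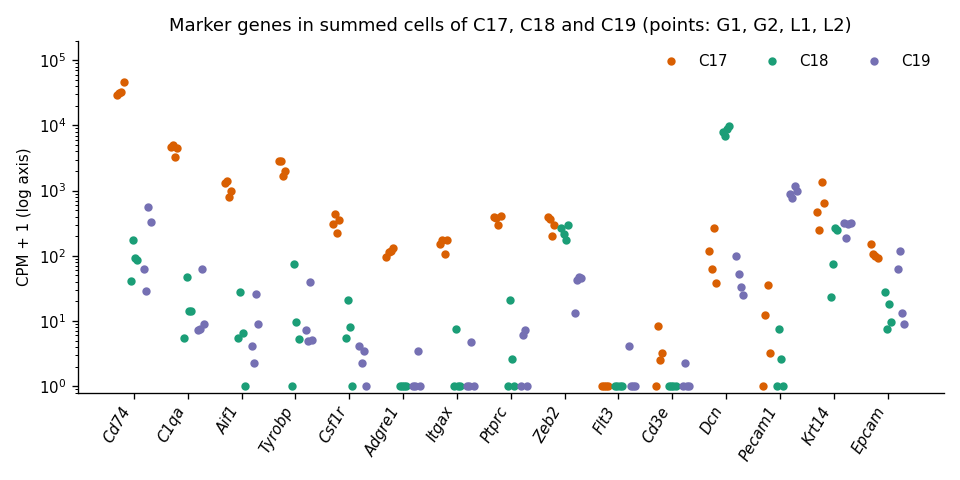
CPM + 1 (log axis) of 15 marker genes in the summed cells of C17, C18 (fibroblasts) and C19 (endothelium), 1 point for each of the libraries G1, G2, L1 and L2. Myeloid genes from Cd74 to Ptprc separate C17 from the other clusters, Zeb2 is as high in C18, Dcn marks C18 and Pecam1 marks C19, and Krt14 is spread over all of them.

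Epithelial transcripts were present as well. Epcam, on which the cells were sorted, had a UMI in 56.7, 44.2, 39.2 and 30.8% of C17 cells and in 3.23 to 13.2% of C18 cells of the same libraries. In C19, the endothelial cluster, it had a UMI in 30.3, 32.5, 5.24 and 3.92% of cells in G1, G2, L1 and L2. Thinned to 1000 UMIs per cell, these shares were 7.08 to 16.3% in C17, 0 to 3.85% in C18 and 0 to 10.8% in C19. The 7 markers of basal (myoepithelial) cells, all of them detected, summed to 3228 CPM in G1, 1630 in G2, 12616 in L1 and 3879 in L2. They summed to 276, 425, 2066 and 1383 CPM in C18, and to 2151, 1377, 2254 and 1891 CPM in C19. L1 thus stood apart from the other libraries. Median depth was 6495.5, 5561.5, 5255.5 and 5416 UMIs per C17 cell in G1, G2, L1 and L2, where the other cells of these libraries had 9686, 7932, 3714.5 and 4183.

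With all its cells C17 took a larger share of the sorted cells in both lactation libraries than in either gestation library. Without the basal-led cells described below this order held, but L1 barely exceeded G2. C17 cells were almost absent before pregnancy and after weaning. They made up 2.13% of cells that passed the filters in G1 (exact Clopper-Pearson 95% interval 1.63 to 2.73%), 2.86% in G2 (2.30 to 3.52%), 3.70% in L1 (3.22 to 4.22%) and 4.35% in L2 (3.71 to 5.07%). The mean was 4.02% ± 0.465 in L and 2.49% ± 0.52 in G (SD, n = 2 each). The values of the stages did not overlap, although the intervals of G2 and L1 did, and an exact two-sided permutation test gave p = 0.33, the smallest p that 2 against 2 libraries allow. Leaving out the 110 cells of the basal-led sub-clusters 2 and 4, the shares were 1.60% in G1 (1.17 to 2.13%), 2.40% in G2 (1.88 to 3.01%), 2.44% in L1 (2.06 to 2.87%) and 4.10% in L2 (3.48 to 4.8%). L1 then lay just above G2, its share having gone down 1.51-fold, and only the interval of L2 lay apart from the others.

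In NP1 the 1 cell was 0.0462% of 2166 cells (0.00117 to 0.257%) and in PI2 the 6 cells were 0.143% of 4192 (0.0525 to 0.311%). No cell was found among 2057 in NP2 or 1449 in PI1, which allows a share of up to 0.146% and 0.207%. The intervals cover counting error only, and a share of sorted cells depends on the gate. Among non-epithelial cells alone the order was different, with 39.2% in G1, 41.3% in G2, 30.2% in L1 and 56.1% in L2, so that the stages overlapped.

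**Figure D2:**
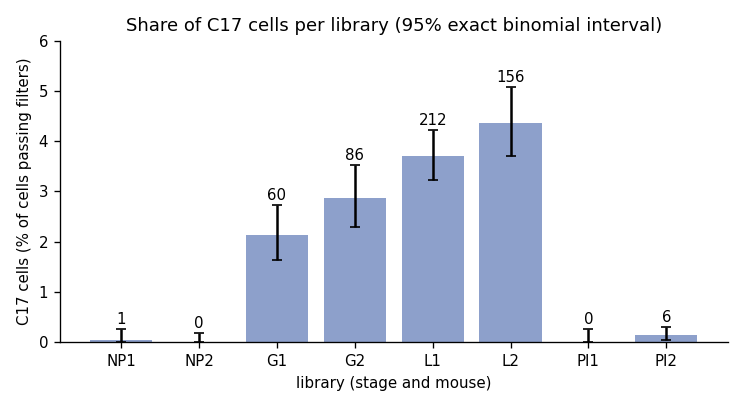
Share of C17 among cells that passed the filters in each of the 8 libraries, with exact 95% binomial intervals and the number of C17 cells above each bar. The L libraries (3.70 and 4.35%) lie above the G libraries (2.13 and 2.86%) when all C17 cells are counted, as here, and the NP and PI libraries lie at or below 0.143%.

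Clustering the C17 cells among themselves gave 6 sub-clusters, which split by stage and by basal content. Sub-cluster 1 held most of the gestation cells, with 34 cells of G1 and 67 of G2 (56.7% and 77.9% of their C17 cells), and 1 cell each of L1 and L2. It also took the NP1 cell and all 6 PI2 cells. Sub-clusters 5 and 6 held lactation cells alone, 47 and 56 cells of L1 and L2 in the former and 75 and 82 in the latter. Sub-cluster 3 held 41 cells of all 4 libraries and was led by cell division genes such as Ccnb2, Tpx2, Birc5 and Top2a.

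Sub-clusters 2 and 4 were led by genes of basal and other stromal or epithelial cells and are left unnamed. Sub-cluster 2 (15 cells of G1 and 13 of G2) was led by Il17b, Wif1 and Igfbp5, and sub-cluster 4 (1 cell of G2, 72 of L1 and 9 of L2) by Col6a1, Nexn and Rgs5. Their basal markers summed to 8941 and 23841 CPM, against 160 to 1843 CPM in the other 4, while their macrophage markers still reached 8567 and 7209 CPM. Their median depths of 7712 and 8361 UMIs per cell were the highest of the 6. Sub-cluster 4 took 34.0% of the C17 cells of L1 but 5.77% of those of L2.

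No doublet caller was run, the authors' own doublet cluster C20 lies outside C17, and whether these 110 cells are pairs of cells in 1 droplet was not tested. Since the leading genes of sub-clusters 2 and 4 go against the name of the cluster, the stages are compared for C17 by its number, and the counts of each list without these 110 cells are given beside those with all cells. Sub-cluster 1 also had Gzma, Xcl1 and Nkg7, genes of cytotoxic lymphocytes, among its leading genes, though only 6.36% of its cells had a UMI of Gzma. Jchain was another leading gene, and its 270 UMIs all came from 1 cell of PI2.

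**Figure D3:**
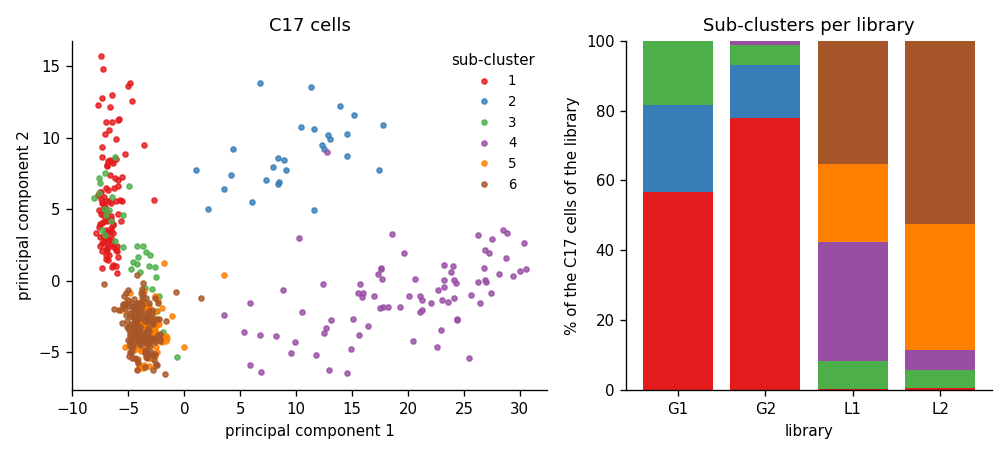
Left, the 521 C17 cells on the first 2 principal components (arbitrary units), coloured by sub-cluster; right, the percentage of each library's C17 cells in each sub-cluster, in the same colours. Sub-clusters 2 and 4, with basal genes in the lead, spread to the right, sub-cluster 1 fills most of G1 and G2, and sub-clusters 5 and 6 occur in L1 and L2 alone.

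The lactation sub-clusters 5 and 6 differed from each other in the same direction in both L mice for the chemokine, chaperone and other genes given here, but not for every gene. Of 148 genes that are named in the text or led a sub-cluster, 97 had the same order in both mice. Ltf (lactoferrin), a leading gene of sub-cluster 5, was at 556 CPM in its L1 cells against 33.8 in those of sub-cluster 6, but at 36.3 against 75.8 CPM in L2, and Adgre1 (142 against 194 CPM in L1, 227 against 80.4 in L2) also changed order. These values are a description, since the sub-clusters were made on them. Sub-cluster 6 was the chemokine-rich form. Ccl3 (a chemokine for monocytes and T cells) stood at 8641 CPM in its L1 cells and 8450 in its L2 cells, and at 3179 and 2925 CPM in those of sub-cluster 5. Cxcl2, which draws neutrophils, was at 15711 and 13179 CPM against 2201 and 2947 CPM.

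Sub-cluster 6 was also higher in Cd83, a marker of activated antigen-presenting cells, at 1823 and 1748 CPM against 382 and 606 CPM, in Ifit2 (569 and 400 CPM against 62.2 and 30.3) and in Ifnb1, interferon beta (414 and 225 CPM against 62.2 and 33.3). Sub-cluster 5 was higher in chaperones and antigen presentation. Hspa1a, an inducible Hsp70, stood there at 6749 and 8495 CPM in L1 and L2 against 1592 and 1484 CPM in sub-cluster 6, and Cd74 at 60147 and 62291 CPM against 37927 and 38466. Hmox1, which degrades haem, was at 996 and 1432 CPM in sub-cluster 5 and at 248 and 494 CPM in sub-cluster 6.

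Between gestation and lactation the lysozyme gene Lyz2 and the cathepsin D gene Ctsd fell in C17, the chemokines Ccl3, Ccl4 and Ccl12, Cd72 and Fcgr4 rose, and the C1q genes and the MHC class II chains did not pass the test. UMIs were summed over the C17 cells of each library (451634 in G1, 536124 in G2, 1286198 in L1 and 894876 in L2) and tested with the quasi-likelihood F-test of edgeR, with p-values adjusted by Benjamini-Hochberg over 6305 genes. At an adjusted p of 0.05, 196 genes (3.11%) differed, of which 116 (1.84%) were higher and 80 (1.27%) lower in L. Without sub-clusters 2 and 4, 933 of 5020 genes (18.6%) differed, 560 higher (11.2%) and 373 lower (7.43%), and 187 of the 196 genes were among them with the same sign. The counts of the lists below are to be read beside these shares, and a count near its share says little about the list.

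The number of genes past the threshold rested on single libraries. It was 33 without G1, 0 without G2, 862 without L1 and 1239 without L2. Without G2, 654 genes had an unadjusted p under 0.05 by edgeR. With all 4 libraries, 53.5% of the tested genes had G and L values that did not overlap, so a lack of overlap alone says little.

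Single genes of digestion and lipid export fell in lactation, among them Lyz2, Ctsd and Abca1. Lyz2, lysozyme of macrophages, stood at 15079 CPM in G1 and 20221 in G2, and at 1476 in L1 and 2832 in L2. Both G values lay above 5 times either L value, a log2 fold change of -2.82 ± 0.38 (L minus G, SE, edgeR adjusted p = 0.019). Ctsd fell from 1271 and 1474 CPM to 103 and 136 CPM (log2 fold change -3.32 ± 0.27, adjusted p = 0.008). Its promoter is printed above. In C18, Ctsd was at 344 and 359 CPM in G and 241 and 277 CPM in L, so the L level in C17 was below that of the fibroblasts of the same mice.

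Among 21 tested lysosomal genes Lyz2 and Ctsd were the 2 that fell, none rose, and the median log2 fold change was -0.50, where that of all tested genes was 0.0083. Without sub-clusters 2 and 4, 9 fell and 1 rose. One of the 9 was Lamp1, at 1112 and 1151 CPM in G and 529 and 529 CPM in L (adjusted p = 0.057 with all cells and 0.00018 without those sub-clusters). Ctss, which trims the invariant chain of MHC class II, did not follow Ctsd. It stood at 3503, 3865, 2936 and 4346 CPM in G1, G2, L1 and L2 (adjusted p = 0.74). Ctsz, another cathepsin, did not pass with all cells. Its log2 fold change was negative in every alternative setting, at -1.35 to -0.573.

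Of 20 lipid handling genes, 3 fell and 2 rose, and 8 fell and 5 rose without sub-clusters 2 and 4, where 7.43% of all tested genes fell and 11.2% rose. Abca1, which exports cholesterol to lipoproteins, dropped from 177 and 201 CPM to 7.77 and 23.5 CPM (log2 fold change -3.45 ± 0.50, adjusted p = 0.023). Nr1h3, the oxysterol receptor LXR alpha that switches on Abca1, went from 75.3 and 46.6 CPM to 5.44 and 1.12 CPM (log2 fold change -3.84 ± 0.56, adjusted p = 0.023). Gpnmb, a glycoprotein of lipid-laden macrophages, was at 57.6 and 118 CPM in G and 2.33 and 1.12 CPM in L (adjusted p = 0.013).

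The 2 that rose were Cd36, a fatty acid and scavenger receptor (17.7 and 41 CPM in G, 179 and 165 in L, log2 fold change 2.71 ± 0.39, adjusted p = 0.023), and Spp1, osteopontin (6.64 and 1.87 CPM in G, 34.2 and 59.2 in L, adjusted p = 0.042). The Spp1 values in C18 of L1 and L2 were 25.2 and 47.7 CPM, close to those of C17. Apoe, the main apolipoprotein of these cells, stood at 19206, 24824, 15540 and 24516 CPM with overlapping stages (adjusted p = 0.93). Cholesterol synthesis and uptake went up in part, with 2 of 10 genes higher and a median log2 fold change of 1.36. One of them was Fdft1, squalene synthase (4.43 and 5.60 CPM in G, 26.4 and 36.9 in L, adjusted p = 0.046). Without sub-clusters 2 and 4, 7 of 9 were higher.

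The core genes of antigen presentation did not pass the test. Of 10 MHC class II presentation genes none rose and 1 fell, and the median log2 fold change was 0.35. H2-Ab1 was at 11252 and 11932 CPM in G and 9201 and 14329 CPM in L (adjusted p = 0.69), and H2-Aa at 7949, 8602, 7006 and 9569 CPM in G1, G2, L1 and L2 (adjusted p = 0.68). The gene that fell was Ifi30, the lysosomal thiol reductase that unfolds antigens, from 1129 and 1110 CPM to 139 and 206 CPM (log2 fold change -2.49 ± 0.28, adjusted p = 0.012). Without sub-clusters 2 and 4, 5 genes of the list rose and Ifi30 still fell, and Cd74 was among the risers (log2 fold change 0.75, adjusted p = 5.2e-05).

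MHC class I presentation had a median of the opposite sign. None of its 10 tested genes passed the threshold, their median log2 fold change was -0.78, and without sub-clusters 2 and 4, 4 of 9 fell. B2m, the light chain of class I molecules, stood at 8726 and 9261 CPM in G and 3996 and 5146 CPM in L (adjusted p = 0.11, and 0.00047 without those sub-clusters).

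Of 7 costimulation and checkpoint genes 2 rose and 1 fell, and 2 fell without sub-clusters 2 and 4, where 2 rose as well. With those sub-clusters left out, 11.2% of all tested genes rose and 7.43% fell. Cd72, a co-receptor that dampens signals in B cells and myeloid cells, rose from 120 and 82.1 CPM to 823 and 1101 CPM (log2 fold change 3.47 ± 0.31, adjusted p = 0.0085), and Cd83 from 215 and 168 CPM to 782 and 1124 CPM (2.53 ± 0.29, adjusted p = 0.013). Cd72 had a UMI in 43.3 and 38.4% of C17 cells in G and in 88.7 and 97.4% in L, while it did so in 0 to 3.23% of C18 cells. Tnfrsf9 (4-1BB) fell from 20 UMIs in the G libraries to 2 in the L libraries.

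Few genes of complement and Fc receptors passed the test with all cells. C1qa was at 4610, 4935, 3223 and 4473 CPM in G1, G2, L1 and L2 (adjusted p = 0.87). Cfp, properdin, which stabilises the alternative pathway convertase, fell from 374 and 341 CPM to 38.9 and 34.6 CPM (log2 fold change -3.08 ± 0.24, adjusted p = 0.008). C3, the central complement protein, also fell (47 UMIs in G, 3 in L, a ratio of 34.6 with an exact 95% counting interval of 11.1 to 174), and C3ar1, the receptor for its fragment C3a, rose from 26.6 and 44.8 CPM to 166 and 267 CPM (2.79 ± 0.42, adjusted p = 0.025). These were the 3 called genes of the 9 tested in this list. Of 8 tested without sub-clusters 2 and 4, 2 rose and 2 fell, against 11.2% and 7.43% of all tested genes.

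Of 13 Fc receptors and adaptors 1 passed with all cells, and without sub-clusters 2 and 4, 5 of 12 rose and 1 fell. Fcgr4, an activating IgG receptor, rose from 4.43 and 16.8 CPM to 184 and 269 CPM (log2 fold change 4.55 ± 0.53, adjusted p = 0.013) and was found in 3.33 and 10.5% of C17 cells in G and in 59.4 and 64.1% in L. In C18 at most 0.352% of cells had a UMI of it. The related Fcer1g, the shared signalling chain, was at 1176, 1393, 1781 and 1865 CPM (adjusted p = 0.12, and 0.0002 without those sub-clusters).

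Of 9 tested C-type lectins, receptors that sense microbes and dead cells, 2 fell. Among 8 tested without sub-clusters 2 and 4, 3 rose and 3 fell, against 11.2% and 7.43% of all tested genes. Clec4e (Mincle) had 50 UMIs in the G libraries and none in the L libraries, which makes it at least 36.8-fold lower in L with 3 UMIs taken as the limit over both L libraries. This bound covers counting error only, as few cells carried Clec4e. It had a UMI in 14.71 and 10.45% of the sub-cluster 1 cells of G1 and G2, and in 3.57% of sub-cluster 2. Clec4d, its partner, fell from 44.3 and 78.3 CPM to 7.0 and 6.7 CPM (log2 fold change -2.96 ± 0.46, adjusted p = 0.028). Clec4e was also the 1 of 6 pattern recognition receptors that changed, with and without those sub-clusters.

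Of 15 chemokines tested with all cells, 3 rose and 2 fell, with a median log2 fold change of 0.77. In the cells outside sub-clusters 2 and 4, 8 of 14 rose and 1 fell, with a median of 1.13, and Ccl6, Ccl9 and Cxcl2 were among the 8. Ccl3 rose from 852 and 959 CPM to 4083 and 5506 CPM (log2 fold change 2.61 ± 0.25, adjusted p = 0.0085). Ccl4, a related chemokine, rose from 4774 and 4359 CPM to 12463 and 17550 CPM (1.93 ± 0.24, adjusted p = 0.014). Ccl12, a monocyte chemokine, rose from 79.7 and 106 CPM to 286 and 301 CPM (1.85 ± 0.26, adjusted p = 0.023).

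Those that fell were Cxcl9, an interferon gamma target that draws T cells (46.5 and 35.4 CPM in G, 8.55 and 6.70 in L, adjusted p = 0.040), and Ccl22, a product of maturing dendritic cells (25 UMIs in G, 2 in L). Ccr7, the receptor that guides dendritic cells to lymph nodes, fell beside them from 66.4 and 76.5 CPM to 10.9 and 3.35 CPM (log2 fold change -3.04 ± 0.47, adjusted p = 0.027) and was the 1 of 6 chemokine receptors that changed, where 1 rose and 1 fell without sub-clusters 2 and 4. Ccr7 and Ccl22 are the 2 of 4 tested markers of migratory dendritic cells that fell (1 of 3 without those sub-clusters), and the markers of this kind summed to 177 and 201 CPM in G and 99.5 and 63.7 CPM in L. In the same libraries this list summed to 98.6 to 204 CPM in C18 and 121 to 378 CPM in C19. The part of migratory dendritic cells in these changes was not tested.

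Interferon response genes were mixed, with 1 of 19 higher, 2 lower and a median log2 fold change of 0.60. Ifit3, whose promoter is printed above, rose from 4.43 and 5.60 CPM to 38.1 and 79.3 CPM (log2 fold change 3.69 ± 0.66, adjusted p = 0.039). Isg15 was at 259, 194, 395 and 562 CPM in G1, G2, L1 and L2 (adjusted p = 0.065). Besides Cxcl9, Gbp2, a guanylate-binding protein, fell from 62.0 and 54.1 CPM to 17.9 and 12.3 CPM (adjusted p = 0.049). Without sub-clusters 2 and 4, 8 genes of this list were higher and 2 lower, Ifit2 and Isg15 among the higher. Of 14 inflammatory cytokine and NF-kB feedback genes only Nfkbiz rose (221 and 200 CPM in G, 411 and 394 in L, adjusted p = 0.043), and Tnf, at 292, 125, 512 and 672 CPM, had an adjusted p of 0.069. Of these 14, 3 rose and 1 fell when sub-clusters 2 and 4 were left out, where 11.2% of all tested genes rose and 7.43% fell.

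Of 15 growth factor and matrix genes 1 rose and 4 fell. Among 12 tested without sub-clusters 2 and 4, 4 rose and 6 fell, against 11.2% and 7.43% of all tested genes. Mmp12 was at 587 and 856 CPM in G and at 2038 and 3784 CPM in L (log2 fold change 2.23 ± 0.39, adjusted p = 0.036). Mmp2, gelatinase A, fell from 113 and 131 CPM to 19.4 and 11.2 CPM (-2.77 ± 0.33, adjusted p = 0.013), and Timp2, an inhibitor of it, from 560 and 701 CPM to 175 and 155 CPM (-1.74 ± 0.23, adjusted p = 0.019). Mmp14, which activates Mmp2, and Vegfa, a growth factor for vessels, fell less, with log2 fold changes of -1.33 ± 0.25 and -1.46 ± 0.27 (adjusted p = 0.044 for each). All 3 members of the Mmp2, Mmp14 and Timp2 activation complex were thus lower in L, while Mmp12 was higher.

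Among the most changed genes outside these lists, S100a4, a calcium-binding protein of motile cells, fell from 135 and 93.3 CPM to 2.33 and 5.59 CPM (log2 fold change -4.68 ± 0.46, adjusted p = 0.0093). Il18bp, which neutralises interleukin 18, fell from 104 and 207 CPM to 4.66 and 6.70 CPM (-4.60 ± 0.51, adjusted p = 0.011), and Crem, a cyclic AMP responsive regulator, from 137 and 244 CPM to 12.4 and 21.2 CPM (-3.34 ± 0.45, adjusted p = 0.019). Plac8, a gene of monocytes, fell from 50.9 and 67.1 CPM to 6.22 and 0 CPM (adjusted p = 0.044), as did Ramp3 (35.4 and 67.1 CPM to 2.33 and 2.23, adjusted p = 0.019) and Mcemp1 (59 UMIs in G, 3 in L). Plac8 was the 1 of 3 tested monocyte markers that fell, and 1 of 2 fell without sub-clusters 2 and 4. The 6 markers of the list summed to 108 and 132 CPM in G and 33.4 and 19 CPM in L. Chil3, 1 of them, had no UMI in G1, L1 or L2. In the same libraries the list summed to 520 to 1331 CPM in C18 and 16.1 to 56.6 CPM in C19. The part of these markers in the result was not tested.

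**Figure D4:**
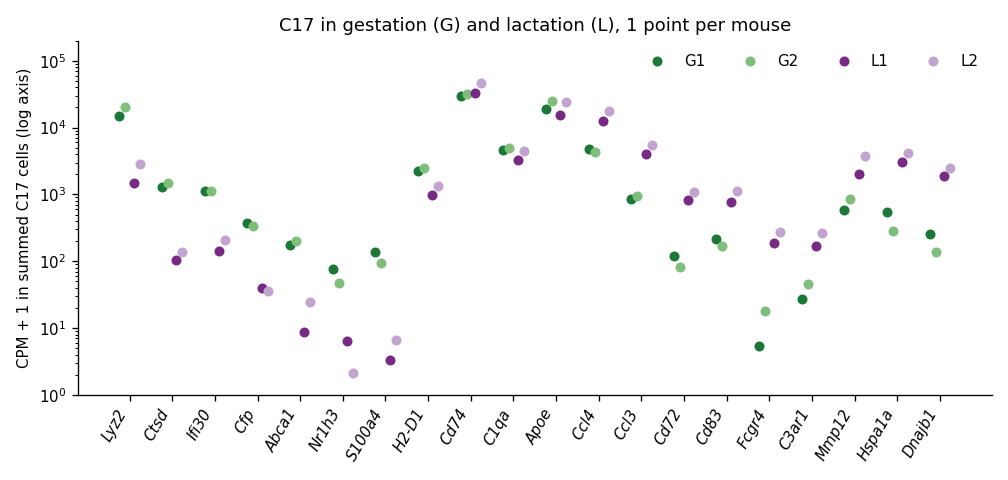
CPM + 1 (log axis) of 20 genes in the summed C17 cells of G1, G2, L1 and L2, 1 point per mouse. Genes on the left, from Lyz2 (15079 and 20221 CPM in G, 1476 and 2832 in L) to S100a4, are lower in L, Cd74, C1qa and Apoe lie close together, and genes from Ccl4 to Dnajb1 are higher in L.

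Immediate early and chaperone genes had the largest share of members that rose among the lists. Of 18 tested, 14 rose, none fell, and the median log2 fold change was 1.64, against 1.84% of all genes that rose. Without sub-clusters 2 and 4 all 17 tested rose. Hspa1a went from 545 and 284 CPM to 3032 and 4182 CPM (log2 fold change 3.35 ± 0.36, adjusted p = 0.011), Jun from 976 and 761 CPM to 4104 and 3786 CPM (2.38 ± 0.19, adjusted p = 0.008) and Btg2 from 241 and 192 CPM to 1583 and 1212 CPM (2.88 ± 0.22, adjusted p = 0.008).

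The list holds genes known to rise during enzymatic digestion of tissue, and the same genes were higher in L in other cells of these libraries. In C18, Hspa1a was at 955 and 891 CPM in G and 2487 and 3095 in L, and Jun at 2563 and 2626 CPM in G and 4010 and 5757 in L. The part of tissue handling was not tested. Hspa1a and Hspa1b are nearly identical in sequence, so reads can be split between them. Among 19 myeloid transcription factors 1 rose with all cells, and 8 rose and none fell without sub-clusters 2 and 4, Nr4a1 among them. The 1 that rose with all cells was Klf2, which restrains inflammatory activation and went from 31.0 and 48.5 CPM to 277 and 226 CPM (2.83 ± 0.30, adjusted p = 0.011). Klf2 was also higher in L in C18 (412 and 432 CPM in G, 704 and 845 in L).

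Some of the largest rises were of genes of basal and milk-secreting epithelium. Csn1s2b, a casein, had no UMI in the G libraries and 439 in the L libraries, at least 66.3-fold higher with 3 UMIs taken as the limit. Wap, a whey protein, was at 11.1 and 0 CPM in G and 232 and 181 CPM in L (adjusted p = 0.014), with 139 and 178 CPM in C18 of L1 and L2. Krt15, a basal keratin, was at 17.7 and 20.5 CPM in G and 488 and 137 CPM in L (adjusted p = 0.026), and Oxtr, the oxytocin receptor of myoepithelium, at 8.86, 1.87, 247 and 63.7 CPM (adjusted p = 0.036), against 743 and 672 CPM of Oxtr in C14, the basal cluster of lactation.

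Of 7 basal markers 3 rose and of 7 tested milk genes 2 rose, and 3 milk genes rose and 1 fell without sub-clusters 2 and 4. Milk genes did not rise as a list, since their median log2 fold change was -0.49 with all cells. The 8 milk genes summed to 1738 and 918 CPM in G1 and G2 and to 1445 and 1003 CPM in L1 and L2, so the stages overlapped. Without sub-clusters 2 and 4 all 7 basal markers were higher in L. Those sub-clusters were left out for their high sum of these same 7 markers, so this count is a description and no test. The cells of sub-clusters 5 and 6 still carried 1843 and 1821 CPM of basal markers, within the 1383 to 2066 CPM of C18 in L1 and L2, while sub-cluster 1 carried 160 CPM. Il17b, a cytokine gene at 1274 and 1171 CPM in C13, the basal cluster of gestation, fell in C17 from 252 and 129 CPM to 21.8 and 7.82 CPM (adjusted p = 0.022). The part of basal RNA in these changes was not tested.

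**Figure D5:**
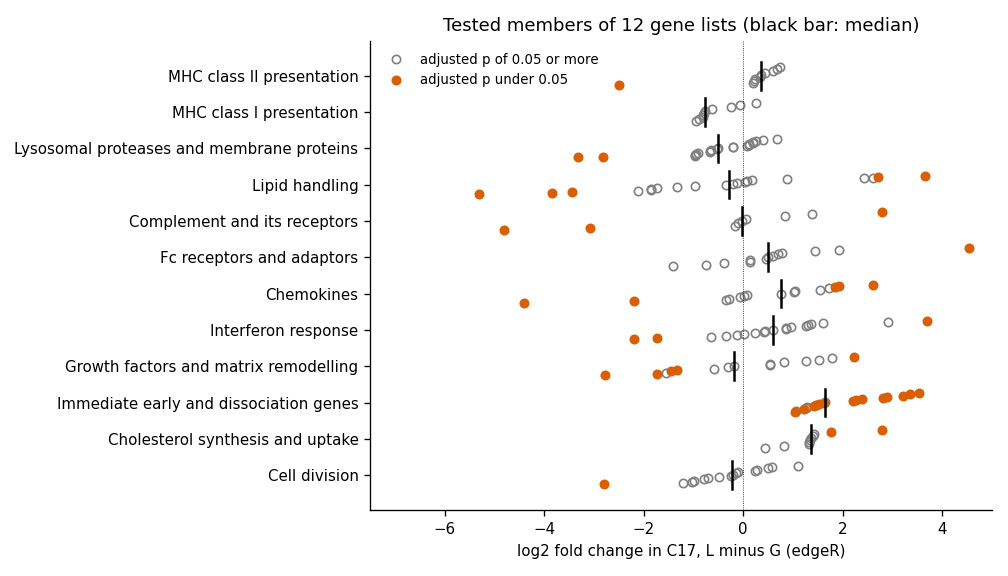
Log2 fold change in C17 (L minus G) of the tested members of 12 gene lists, with filled points for an adjusted p under 0.05, open points for the others and a black bar at each list's median. Immediate early and dissociation genes lie to the right of 0 throughout (median 1.64), MHC class II genes cluster near 0 with Ifi30 as the exception, and lysosomal and lipid genes extend far to the left.

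In the remaining lists few genes passed the test with all cells, and in most of these lists more did without sub-clusters 2 and 4. The called share of all tested genes rose as well, from 3.11% to 18.6%. None of 10 apoptotic cell uptake genes, 5 tissue-resident macrophage genes, 13 adhesion and integrin genes or 11 macrophage markers passed the threshold with all cells, although the median log2 fold change of the 5 tissue-resident genes was 1.01. Leaving those sub-clusters out, 4 of 10 uptake genes, 3 of 5 tissue-resident genes and 4 of 11 macrophage markers rose and none fell, and of 12 adhesion genes 2 rose and 2 fell. The list of 8 iron and haem handling genes had 1 gene that rose with all cells, Hpgd, which degrades prostaglandins and is not itself an iron or haem protein (46.5 and 37.3 CPM in G, 139 and 136 in L, adjusted p = 0.021), and 4 rose and 2 fell without sub-clusters 2 and 4, Hmox1 among the higher. Of 12 glycolysis and hypoxia genes Vegfa was the 1 that fell, and of 11 S100 and annexin genes S100a4 was the 1 that fell, with 1 of 11 and 2 of 10 lower in these lists without sub-clusters 2 and 4. Of 16 cell division genes 1 fell (1 of 15 without those sub-clusters), Cenpa, a centromere histone, from 237 and 246 CPM to 32.7 and 27.9 CPM (log2 fold change -2.79 ± 0.25, adjusted p = 0.0085), while Mki67 was at 99.6, 46.6, 38.9 and 38 CPM (adjusted p = 0.36).

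Whether a change was larger in C17 than in its neighbours was tested as the L minus G change in C17 minus the mean of the same changes in C18 and C19, with the mouse as a block. Of 8042 genes 128 differed (1.59%), 73 upwards (0.908%) and 55 downwards (0.684%). Without G1 the number was 56, without G2 4, without L2 552, and without sub-clusters 2 and 4 568. Ctsd fell more in C17 (difference of log2 fold changes -3.91 ± 0.31, adjusted p = 2.1e-06), and so did Lamp1 (-1.52, adjusted p = 0.0087), 2 of the 3 lysosomal genes, of 21 tested, that did. Abca1 (-2.90 ± 0.53, adjusted p = 0.011) and Nr1h3 (-3.76 ± 0.72, adjusted p = 0.013) were also lower.

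The MHC class I heavy chains H2-K1 and H2-D1 were the 2 of 10 class I genes that fell more in C17, with differences of -1.57 and -1.81 on the log2 scale (adjusted p = 0.018 and 0.013). In C17, H2-D1 was at 2245 and 2445 CPM in G and 993 and 1318 in L, and in C18 at 1100 and 425 CPM in G and 1320 and 2107 in L, so the clusters moved in opposite directions. H2-K1 and H2-D1 resemble other class I genes closely, and reads can be split between them. Mmp2 and Timp2 also fell more (-3.14 and -2.86, adjusted p = 0.00098 and 5.7e-05).

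Upwards, Hmox1 differed by 3.55 ± 0.38 (adjusted p = 6.2e-05). It stood at 170 and 241 CPM in G and 366 and 817 in L in C17, and at 408 and 452 CPM in G and 73.4 and 73.7 in L in C18. Of the 18 immediate early and chaperone genes, 6 rose more in C17 than in C18 and C19, Btg2 (2.40 ± 0.28, adjusted p = 0.00014) and Hspa1a (1.36, adjusted p = 0.02) among them. Lyz2 did not pass this test with all cells (-2.09, adjusted p = 0.29) and passed it without sub-clusters 2 and 4 (-1.67, adjusted p = 0.031). In C18 it was at 4.53 and 213 CPM in G and 5.52 and 0 CPM in L.

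The few cells of the other stages give only a first look, with no test. In the 6 PI2 cells, Lyz2 was at 11131 CPM (exact counting interval 9991 to 12366), above both L and below both G libraries. Ctsd was at 3657 CPM (3016 to 4393), above each G and L library. Lgals3, galectin 3 of phagocytic macrophages, was at 2823 CPM (2264 to 3478) against 306 and 653 CPM in L1 and L2. Hspa1a had 1 UMI in these cells, 32.1 CPM (0.812 to 179), below each G and L library.

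Cd72 stood at 353 CPM (176 to 631) and Ccl4 at 9912 CPM (8838 to 11081) in the PI2 cells, both between the G and the L libraries. Ifi30 also lay between them, at 385 CPM (199 to 672). Fcgr4, at 192 CPM (70.6 to 419), and Mmp12, at 3497 CPM (2871 to 4218), were above both G libraries and within the range of the L libraries. The NP1 cell had 82 UMIs of Lyz2 among its 5906 (13884 CPM, 11042 to 17234) and 4 of Ctsd. All 7 cells fell into sub-cluster 1 with the gestation cells, and 1 mouse or 1 cell cannot stand for its stage.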

How the data were processed

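Mammary cells of 8 mice, 2 per stage, were sequenced on the 10x Chromium platform, 1 library per mouse. The authors counted UMIs per gene and barcode in Cell Ranger, left the counts unscaled between libraries and deposited them as matrices (the submitters' notes name STAR and the build mm10). A cell annotation by the authors holds clusters, flags and, as a fraction, the part of a cell's UMIs that is mitochondrial. Cells were joined by library and barcode, the authors' quality flag was used, and no C17 barcode occurred in another library. Clusters were not made again. No doublet caller was run.

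C17 cells were sub-clustered in scanpy 1.11.5 (1000 variable genes, 20 components, 15 neighbours, Leiden resolution 0.5). UMI counts were summed per library and tested in edgeR 4.0.16 (TMM, filterByExpr with a minimum count of 10 and minimum total of 15, glmQLFTest) across G1, G2, L1 and L2, which come from separate mice. DESeq2 1.42.0 served as an alternative. Named genes were members of the lists, the 12 largest rises and 12 largest falls past an adjusted p of 0.05 with at least 50 CPM in 1 stage and no overlap, and the 20 genes with the largest ratio over C1 to C15. Cluster members, lists and tests were chosen with earlier results of these data known. Other stage contrasts were not run, as no NP or PI library had 20 C17 cells. The values of some genes are not reported here. Scripts were tested on simulated data. Intervals are at 95%.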

Additional observations from a re-analysis of the deposited data

Results flagged for a closer look

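The L minus G change in C17 differed from the mean change in C18 and C19 for the 24 genes below, the 12 furthest in each direction that passed the rule for named genes. Values are differences of log2 fold changes with their SE, by edgeR's quasi-likelihood test with the mouse as a block. Such a difference can come from changes in C18 and C19 as well as in C17. In C17 itself the changes of Gpr137b, Smpdl3a, Igfbp3, Hmox1, Dusp2, Bhlhe41 and Lgals1 did not pass the edgeR test with all cells.

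Of the 12 that differed downwards, Ctsd differed by -3.91 ± 0.31 (adjusted p = 2.1e-06), Nr1h3 by -3.76 ± 0.72 (adjusted p = 0.013), Abca1 by -2.90 ± 0.53 (adjusted p = 0.011) and Smpdl3a, a phosphodiesterase related to acid sphingomyelinase, by -2.94 ± 0.44 (adjusted p = 0.002). Gpr137b, a lysosomal membrane protein, differed by -4.04 ± 0.96 (adjusted p = 0.042). In C17 alone the log2 fold change over the alternative settings was -1.31 to -0.197 for Gpr137b and -1.53 to -0.794 for Smpdl3a. S100a4 differed by -7.26 ± 0.76 (adjusted p = 5.7e-05), and it was higher in L in C18 (36.2 and 19.9 CPM in G, 155 and 60.7 in L) while it fell in C17. Ass1, which makes arginine for nitric oxide synthesis, differed by -4.80 ± 0.72 (adjusted p = 0.0018), with 157 and 149 CPM in G and 27.2 and 23.5 in L.

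Il18bp differed by -5.13 ± 0.87 (adjusted p = 0.007), Mmp2 by -3.14 ± 0.44 (adjusted p = 0.00098), Hebp1, a haem-binding protein, by -3.03 ± 0.45 (adjusted p = 0.0018) and Chchd10, a mitochondrial protein, by -2.95 ± 0.63 (adjusted p = 0.023). Igfbp3 differed by -3.86 ± 0.94 (adjusted p = 0.047, and 0.77 without sub-clusters 2 and 4), and it stood at 702 and 990 CPM in C13, the basal cluster of gestation.

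Upwards, Hmox1 differed by 3.55 ± 0.38 (adjusted p = 6.2e-05), Ifit3 by 3.11 ± 0.69 (adjusted p = 0.029), Dusp2, a phosphatase of MAP kinases, by 2.93 ± 0.63 (adjusted p = 0.025) and Rgs2, a regulator of G protein signals, by 2.32 ± 0.41 (adjusted p = 0.0095). For Dusp2 the log2 fold change in C17 alone was 0.559 to 1.22 over the alternative settings. The stress and early response genes Btg2, Bag3 and Dnajb1 differed by 2.40 ± 0.28 (adjusted p = 0.00014), 2.39 ± 0.36 (adjusted p = 0.0018) and 2.32 ± 0.32 (adjusted p = 0.00091).

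The other 5 that differed upwards were also high in C14, the basal cluster of lactation. Tsc22d1 differed by 2.85 ± 0.39 (adjusted p = 0.00091) and had 4074 and 4090 CPM in C14. Tppp3 differed by 2.59 ± 0.53 (adjusted p = 0.02) and had 1150 and 718 CPM there. Lgals1 differed by 2.35 ± 0.33 (adjusted p = 0.0013) and had 2425 and 2405 CPM there. Sphk1 differed by 3.20 ± 0.63 (adjusted p = 0.016) with 304 and 350 CPM in C14, and Bhlhe41 by 3.03 ± 0.71 (adjusted p = 0.038) with 293 and 303 CPM. The part of basal RNA in these values was not tested.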

How the results depend on the processing

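The count of 196 genes that differed between L and G in C17 became 894 with no filter on low counts, 709 without cells with keratin UMIs, 724 with a replicate block and 933 without sub-clusters 2 and 4, an alternative chosen after seeing the data. It was 0 with edgeR's glmTreat against a fold change of 2, at an adjusted p of 0.01 instead of 0.05. In that fit 443 genes had an unadjusted p under 0.05. DESeq2, which tested no fold limit, called 281. Leaving out 1 library in turn gave 0 to 1239, lowest without G2 and highest without L2, and the lone library of a stage was then assumed to vary like the other stage. The replicate numbers are no known pairing, and the deviations of same-numbered libraries from their stage means correlated at 0.0997 across genes (-0.0691 without sub-clusters 2 and 4). The count of 128 genes whose change differed from that in C18 and C19 ranged from 4 (without G2) to 552 (without L2), and was 568 without sub-clusters 2 and 4. Among named genes, 7 values changed sign, all in fits without 1 library. Leaving out libraries in turn, the log2 fold change of Ctss ranged from -0.21 to 0.57, H2-Aa from -0.13 to 0.54, H2-Ab1 from -0.22 to 0.64 and Ptprc from -0.26 to 0.44, each lowest without L2, Apoe from -0.39 (without L2; -0.15 without G1) to 0.48, and C1qa from -0.45 to 0.24 (without L1). The difference in share was 1.53 percentage points, 1.49 over all barcodes and 1.39 without the doublet cluster and 1.28 without sub-clusters 2 and 4, where L1 (2.44%) lay beside G2 (2.40%). Sub-clusters numbered 6 at a resolution of 0.3 and 9 at 1, and no sub-cluster had 20 cells in each of the 4 libraries, so a test within one was not run. The G libraries, with 60 and 86 cells, had the smallest sums of UMIs in the test, though not the lowest median UMIs per cell.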

Other observations

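A few C17 cells carried transcripts of other blood cells. Haemoglobin UMIs came almost all from 2 cells, 365 UMIs in 1 cell of G2 and 1173 of 1174 UMIs in 1 cell of L1, so the haemoglobin level of sub-cluster 6 is that of a single droplet. Cd3d or Cd3g, chains of the T cell receptor complex, were found in 5 of 60 cells in G1, 19 of 86 in G2, 2 of 212 in L1 and 1 of 156 in L2, with 16, 48, 3 and 8 UMIs in all. T cell markers as a list summed to 106 and 241 CPM in G and 28.0 and 29.1 CPM in L. Of 4 tested T cell markers 1 fell, Cd8a, with 15 UMIs in G and none in L, at least 11.0-fold lower with 3 UMIs taken as the limit. All 4 T cell markers tested without sub-clusters 2 and 4 fell, namely Cd3d, Cd3g, Cd4 and Lat, with a median log2 fold change of -3.16.

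Dividing cells were present at both stages. Sub-cluster 3 took 18.3% of C17 cells in G1, 5.81% in G2, 8.02% in L1 and 5.13% in L2, so the stages overlapped. Cd207 (langerin), a lectin of Langerhans cells, was at 39.9 and 0 CPM in G and 73.9 and 171 CPM in L (edgeR adjusted p = 0.16), and its highest level was in sub-cluster 6 with 144 CPM in L1 and 276 CPM in L2.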
